A study of Mus musculus with 15 samples.

Results

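The effect of giving AG221 and ruxolitinib together was measured by RNA sequencing in mutant hematopoietic stem and progenitor cells, as the difference between 3 combined-treatment libraries and 3 vehicle libraries. The comparison took in every gene that passed a filter on low counts, which left 17834 of the 45232 gene identifiers in the count table. The cells were LSK cells (lineage-negative, Sca-1+, c-Kit+ bone marrow cells, the fraction that holds the blood stem cells and the earliest progenitors) of the CD45.2 type, sorted from C57BL/6 recipients that had been lethally irradiated and given a mix of mutant CD45.2 and normal CD45.1 marrow. The sorted mutant cells of both groups, vehicle and combined, carried Jak2 V617F together with Idh2 R140Q, both switched on by Mx1-Cre after polyI:polyC. The Mx1 promoter is itself an interferon-responsive promoter, and no group with these alleles left unswitched was measured. AG221 was dosed at 40 mg/kg and ruxolitinib at 60 mg/kg, by gavage, 2 times a day for 21 to 28 days, with the last dose about 1.5 hours before the marrow was taken, and the vehicle group received neither drug. The other groups of 3 libraries, AG221 alone, ruxolitinib alone and WT (CD45.2+ LSK cells without the 2 mutations), entered the same fit and are given only beside the combined group. As the groups are described, the 3 libraries of a group stand for 3 recipients, with no statement on pooling, and the p-values below measure the spread between these libraries.

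Jak2 encodes a kinase that sits under the receptors for erythropoietin, thrombopoietin and other cytokines and phosphorylates STAT transcription factors; V617F keeps it active without cytokine. Idh2 encodes the mitochondrial isocitrate dehydrogenase, and R140Q makes it produce 2-hydroxyglutarate, which inhibits 2-oxoglutarate-dependent dioxygenases such as the TET enzymes and many histone demethylases. Ruxolitinib blocks JAK1 and JAK2, which also carry interferon and many inflammatory cytokine signals, and AG221 (enasidenib) blocks the mutant IDH2 enzyme.

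The depth was 27433630 to 32174287 counts per vehicle library and 18836625 to 29580486 counts per combined library. Levels are given as CPM, which divide each count by its library's total after scaling for composition, so they compare libraries for 1 gene and not genes of different length with each other. A count of 3 corresponds to 0.0957 to 0.118 CPM in the vehicle libraries and to 0.104 to 0.157 CPM in the combined libraries. The combined libraries detected 22454 to 26329 genes and the vehicle libraries 21369 to 22995. Vehicle replicates are numbered A1, A3 and A4 and combined replicates B24, B25 and B26. What the letters stand for is not stated, the WT replicates also carry B and both single-drug groups carry A, so the letter and the combined treatment cannot be told apart. As a check of the sort, Ptprc, the CD45 gene, was at 494 to 625 CPM in vehicle and 297 to 411 CPM in combined, groups that did not overlap, Kit was at 859 to 1369.7 CPM in vehicle and 901 to 1024.5 CPM in combined, and Cd34 at 706 to 1000.1 and 716 to 1101.8 CPM. The Sca-1 gene Ly6a ranged from 13.1 to 166 CPM in vehicle, with A4 lowest, and from 48.8 to 60.1 CPM in combined. Lineage antigens were low, with Klrb1c (NK1.1) at no more than 2.87 CPM, Cd3e at no more than 0.861 CPM, Cd4 at no more than 1.37 CPM and Ly6g at no more than 0.602 CPM in any of the 6 libraries, except Itgam, which was at 36.7 to 77.5 CPM in vehicle and 28.1 to 50.1 CPM in combined.

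Combined treatment changed 2226 of the 17834 genes (12.5%) at an adjusted p below 0.05 in edgeR's quasi-likelihood test: 1476 (8.28%) were higher and 750 (4.21%) lower than in vehicle. The counts of called members in each gene list below stand beside these shares. At an unadjusted edgeR p under 0.05, 2849 of the 17834 genes were higher and 1866 lower. DESeq2 called 1942 of the same genes higher and 1006 lower. List counts by either measure below stand beside these. The genes with the strongest evidence were all lower: 17 genes passed an adjusted p of 0.0001, and 0 of those were higher. Among the called genes, the shift was also of different form in each direction. The fitted difference was shown to exceed 2-fold for 58 lower and 41 higher genes, but to exceed 1.5-fold for 161 lower and 589 higher genes (edgeR's glmTreat, adjusted p below 0.05). By the fitted fold alone, without that test, the larger changes were more often rises. At least 2-fold were 1213 higher and 351 lower called genes, and at least 8-fold 90 and 54. The median log2 fold change was 1.58 for called higher and -0.93 for called lower genes. The number of calls rested on which libraries were used, since it fell to 1006 without vehicle A1, 1049 without combined B24 and 1169 without combined B25, and 843 genes (613 higher, 230 lower) were called in the full fit and in each of the 6 fits that left 1 library out.

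**Figure D1:**
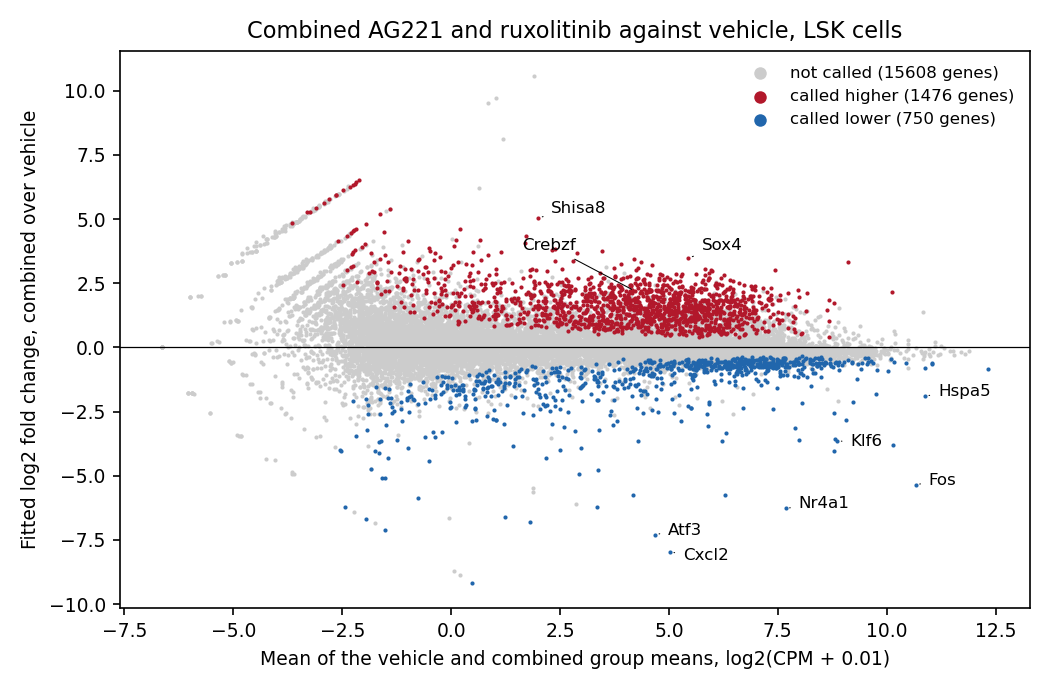
Fitted log2 fold change of combined over vehicle (vertical axis) against the mean level of the 2 groups in CPM on a log2 scale (horizontal axis), 1 point for each of 17834 genes. The called lower genes include abundant genes far from 0, such as Fos and Klf6. Of the 1476 called higher genes, 90 are at least 8-fold higher, beside 54 called lower genes at least 8-fold lower.

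Among called genes with separate groups and at least 5 CPM in vehicle, the 10 with the largest fall were Cxcl2, Atf3, Ccn1, Nr4a1, Egr2, Fosb, Ptgs2, Fos, Plk2 and Cxcl10. Most are immediate-early or inflammatory genes, which cells switch on within minutes of a signal from poised promoters. The promoters of Cxcl2, Atf3, Ccn1 and Nr4a1, which are among the genes with the largest fall, are printed from RefSeq (GRCm38.p6) to show which signal-response motifs they hold, each covering 250 bases before to 50 bases after the transcription start, 5′ to 3′ on the gene's strand. Capitals mark every match, on either strand, to the 6 motifs searched: AP-1 (TGACTCA, which reads TGAGTCA on the other strand), the cyclic AMP response element or CRE (TGACGTCA), the short CRE (CGTCA, which reads TGACG on the other strand and lies inside the whole CRE), GAS (TTCNNNGAA, the STAT site), the CArG box of the serum response element and the NF-kB site. The short CRE was added after these sequences were seen. They lie at chr5:90903649-90903948 (plus strand) for Cxcl2, chr1:191183284-191183583 (minus) for Atf3, chr3:145649936-145650235 (minus) for Ccn1 and chr15:101266596-101266895 (plus) for Nr4a1.
Cxcl2: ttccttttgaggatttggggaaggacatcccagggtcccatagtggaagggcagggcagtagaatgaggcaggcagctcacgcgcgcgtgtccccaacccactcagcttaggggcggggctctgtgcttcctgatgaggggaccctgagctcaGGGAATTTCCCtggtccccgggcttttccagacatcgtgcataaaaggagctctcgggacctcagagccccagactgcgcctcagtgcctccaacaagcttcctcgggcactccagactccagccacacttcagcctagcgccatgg
Atf3: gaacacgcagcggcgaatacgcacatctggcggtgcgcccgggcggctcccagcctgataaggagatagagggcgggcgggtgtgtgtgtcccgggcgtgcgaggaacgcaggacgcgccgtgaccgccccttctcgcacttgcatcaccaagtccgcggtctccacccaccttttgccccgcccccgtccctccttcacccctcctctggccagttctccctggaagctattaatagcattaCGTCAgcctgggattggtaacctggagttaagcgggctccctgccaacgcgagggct
Ccn1: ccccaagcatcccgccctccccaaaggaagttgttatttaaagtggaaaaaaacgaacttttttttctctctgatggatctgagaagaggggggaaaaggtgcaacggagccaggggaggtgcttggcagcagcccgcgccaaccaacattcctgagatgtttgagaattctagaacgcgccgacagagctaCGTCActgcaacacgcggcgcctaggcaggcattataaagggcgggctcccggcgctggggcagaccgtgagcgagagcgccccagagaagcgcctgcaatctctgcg
Nr4a1: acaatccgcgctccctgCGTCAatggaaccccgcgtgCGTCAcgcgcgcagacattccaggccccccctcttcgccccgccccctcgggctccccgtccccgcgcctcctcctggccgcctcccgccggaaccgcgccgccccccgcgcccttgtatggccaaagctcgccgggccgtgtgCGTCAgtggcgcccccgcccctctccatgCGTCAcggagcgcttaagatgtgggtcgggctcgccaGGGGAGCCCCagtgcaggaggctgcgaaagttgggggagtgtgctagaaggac
The Cxcl2 promoter held an NF-kB match that reads on both strands, Atf3 and Ccn1 held 1 short CRE each, and Nr4a1 held 4 short CREs and 1 NF-kB match. None of the 4 windows held the AP-1, whole CRE, GAS or CArG letters. Over the 11808 tested genes with a promoter in the table, 30% held the short CRE, 5% the NF-kB site, 7.07% GAS, 3.6% AP-1, 3.01% the whole CRE and 1.32% the CArG box. The short CRE was in 37.4% of genes called lower and 33.4% of genes called higher. Of the early response and AP-1 family genes called lower, 20 had a promoter sequence, among them Atf3, Ccn1 and Nr4a1. Of these 20, 11 (55.0%) held the short CRE and 4 (20%) the NF-kB site. GAS and the whole CRE were in 2 (10%) each, the CArG box in 1 (5%) and AP-1 in 0. Of the interferon-stimulated genes called lower, 18 had a promoter sequence, of which 6 (33.3%) held GAS and 4 (22.2%) AP-1. The short CRE was in 6 (33.3%), the NF-kB site in 2 (11.1%) and the whole CRE and CArG box in 0. These counts describe letters in a 300-base window and were not tested.

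Of 30 tested immediate-early genes of the Egr, Nr4a, Ier and Klf families and their companions, 19 fell, 2 rose and 9 were not called, with a median log2 fold change of -1.97 against 0.04 over all genes. The 19 became 12 without B24 or B25 and 13 to 20 without the others, and 11 kept the call in all 6 fits. Klf6, a Krüppel-like transcription factor, was at 970, 945 and 675 CPM in the vehicle libraries and at 76.8, 61.9 and 67.5 CPM in the combined libraries (log2 fold change -3.65, SE 0.196, adjusted p = 8.10e-07). Nr4a1, an orphan nuclear receptor, was at 418, 709 and 85.2 CPM in vehicle and 5.64, 6.01 and 4.02 CPM in combined (-6.27, SE 0.721, adjusted p = 3.76e-04). Vehicle A4 lay under the other vehicle libraries for both genes, and well under them for Nr4a1, but the groups did not overlap for either gene. Egr1, a zinc finger factor induced by growth signals, was at 375, 1484.6 and 631 CPM in vehicle against 80.5, 55.0 and 18.1 CPM in combined (-4.02, SE 0.715, adjusted p = 0.00378). Its relative Egr2 was at 7.33, 39.5 and 13.8 CPM against 0.209, 0.415 and 0.139 CPM. Zfp36, whose product tristetraprolin degrades cytokine mRNAs, was at 2364.3, 2807.6 and 1185.3 CPM in vehicle and 207, 96.0 and 148 CPM in combined. In contrast, its paralog Zfp36l2 rose, from 56.2, 81.6 and 83.0 CPM to 421, 317 and 167 CPM (2.04, SE 0.412, adjusted p = 0.00654), and so did Srf, the serum response factor itself, from 6.96, 6.25 and 5.88 CPM to 17.5, 19.4 and 8.93 CPM. Klf2 also fell, from 17.8, 17.2 and 9.12 CPM to 0.678, 1.21 and 0.971 CPM, and the antiproliferative gene Btg2 fell from 715, 1197.3 and 570 CPM to 99.5, 48.0 and 61.1 CPM. Ccn1, a secreted matrix protein gene, was at 1.17, 18.8 and 0.750 CPM in vehicle, so that A3 carried most of its vehicle level, and its call was lost without combined B24 or B25. Nr4a2 and Gadd45b passed in the full fit at adjusted p = 0.0266 and 0.0277 but each lost the call in 4 of the 6 fits with a library left out, and Klf4 did not pass (-1.89, adjusted p = 0.0596).

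The AP-1 family, the bZIP proteins that pair to form the AP-1 transcription factor, divided by member. Of 16 members, 5 fell, 0 rose and 11 were not called (median -0.47; at an unadjusted edgeR p under 0.05, 7 lower and 1 higher; in DESeq2, 5 lower and 0 higher), and 3 of the 5 kept the call in all 6 fits. Fos was at 2711.6, 4974.9 and 1819.7 CPM in vehicle and at 129, 33.4 and 70.7 CPM in combined, a 40.8-fold difference between the group means (log2 fold change -5.35, SE 0.501, adjusted p = 6.31e-05). Fosb was at 143, 225 and 92.2 CPM against 3.55, 1.80 and 3.15 CPM, and Atf3 at 57.6, 46.6 and 48.6 CPM against 0.261, 0.207 and 0.509 CPM (-7.29, SE 0.423, adjusted p = 1.12e-06). For these 3 genes every combined library lay more than 10-fold under every vehicle library. Jun, the usual partner of Fos, was at 285, 891 and 623 CPM in vehicle and 291, 186 and 100 CPM in combined, so the groups overlapped and it was not called (-1.64, adjusted p = 0.197). Junb (adjusted p = 0.0384) and Atf7 (adjusted p = 0.0439) were called lower in the full fit, but Junb lost the call whichever of the 6 libraries was left out and Atf7 in 5 of the 6 fits.

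Feedback inhibitors of the MAPK pathway, which early response genes follow in many cells, did not fall as a group: of 14 tested, 1 fell and 2 rose (median 0.28). Spry1 was at 11.1, 39.9 and 13.6 CPM in vehicle and 3.55, 4.6 and 3.52 CPM in combined (adjusted p = 0.0109, lost without A3 or B24). Dusp7 rose from 2.56, 2.36 and 2.72 CPM to 10.2, 7.74 and 8.23 CPM (adjusted p = 0.00329), and Spred1 rose from 16.9, 12.9 and 14.7 CPM to 23, 26.1 and 30.2 CPM (adjusted p = 0.00876). The ERK phosphatase gene Dusp6 was at 160, 222 and 143 CPM in vehicle and 167, 93.0 and 90.4 CPM in combined, with overlapping groups, and Dusp1 at 107, 263 and 199 CPM against 88.9, 48.7 and 26 CPM did not pass either (adjusted p = 0.0837).

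Secreted inflammatory mediators are a further group that early signals induce. Of 27 tested genes for cytokines, chemokines and prostaglandin synthesis, 10 fell, 1 rose and 16 were not called (median -0.93); 6 of the 10 kept the call in all 6 fits with a library left out. The neutrophil chemokine gene Cxcl2 was at 92.1, 59.1 and 43.0 CPM in vehicle and at 0.0522, 0.380 and 0.278 CPM in combined (-7.98, SE 0.674, adjusted p = 2.71e-05). Ptgs2, the inducible cyclooxygenase, was at 50.7, 32.6 and 23.1 CPM against 0.626, 0.380 and 0.971 CPM (-5.76, adjusted p = 9.86e-06). The groups were far apart for both. Tnf fell from 46.1, 34.0 and 28.4 CPM to 3.76, 1.31 and 3.75 CPM (-3.63, adjusted p = 1.41e-04), and Osm, the gene for oncostatin M, a STAT5 target that signals through gp130, from 142, 128 and 161 CPM to 12.7, 16.7 and 13.2 CPM (-3.34, adjusted p = 3.19e-05). The macrophage inflammatory protein gene Ccl4 was at 154, 89.9 and 74.1 CPM in vehicle and 19.3, 5.84 and 13.3 CPM in combined (-3.06, adjusted p = 7.33e-04). Il6, Lif, Ccl3 and Alox5 were called lower as well, but each lost the call in at least 2 of the 6 fits with a library left out. The member that rose was Ptger4, a prostaglandin E2 receptor gene, from 5.98, 10.6 and 13.8 CPM to 41, 47.1 and 21.1 CPM (adjusted p = 0.0282, lost without A1, A3, B24 or B25).

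NF-kB, which drives many of these mediators, was followed through 21 tested genes for its subunits, inhibitors and targets, of which 6 fell and 2 rose (median -0.23), with 4 and 1 of them called in all 6 fits with a library left out. The inhibitors that NF-kB itself induces were among the 6. Nfkbia, the gene for IkB-alpha, was at 402, 422 and 472 CPM in vehicle and 98.6, 87.0 and 107 CPM in combined (-2.15, SE 0.381, adjusted p = 0.00378). Tnfaip3, the gene for the ubiquitin-editing inhibitor A20, was at 132, 163 and 223 CPM against 42.8, 32.8 and 25.8 CPM (-2.35, adjusted p = 0.00230). Nfkbiz and the subunit gene Rel also fell, Rel from 113, 97.9 and 78.3 CPM to 43.3, 25.5 and 40.1 CPM (-1.41, adjusted p = 0.00227). On the other side, Tnfaip2 rose from 8.91, 11.4 and 24.7 CPM to 64.4, 127 and 35.7 CPM (2.34, adjusted p = 0.00635). Bcl3, a nuclear IkB protein gene, passed at adjusted p = 0.0309 but lost the call in 5 of the 6 fits with a library left out, as did Nfkbid among the lower genes.

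**Figure D2:**
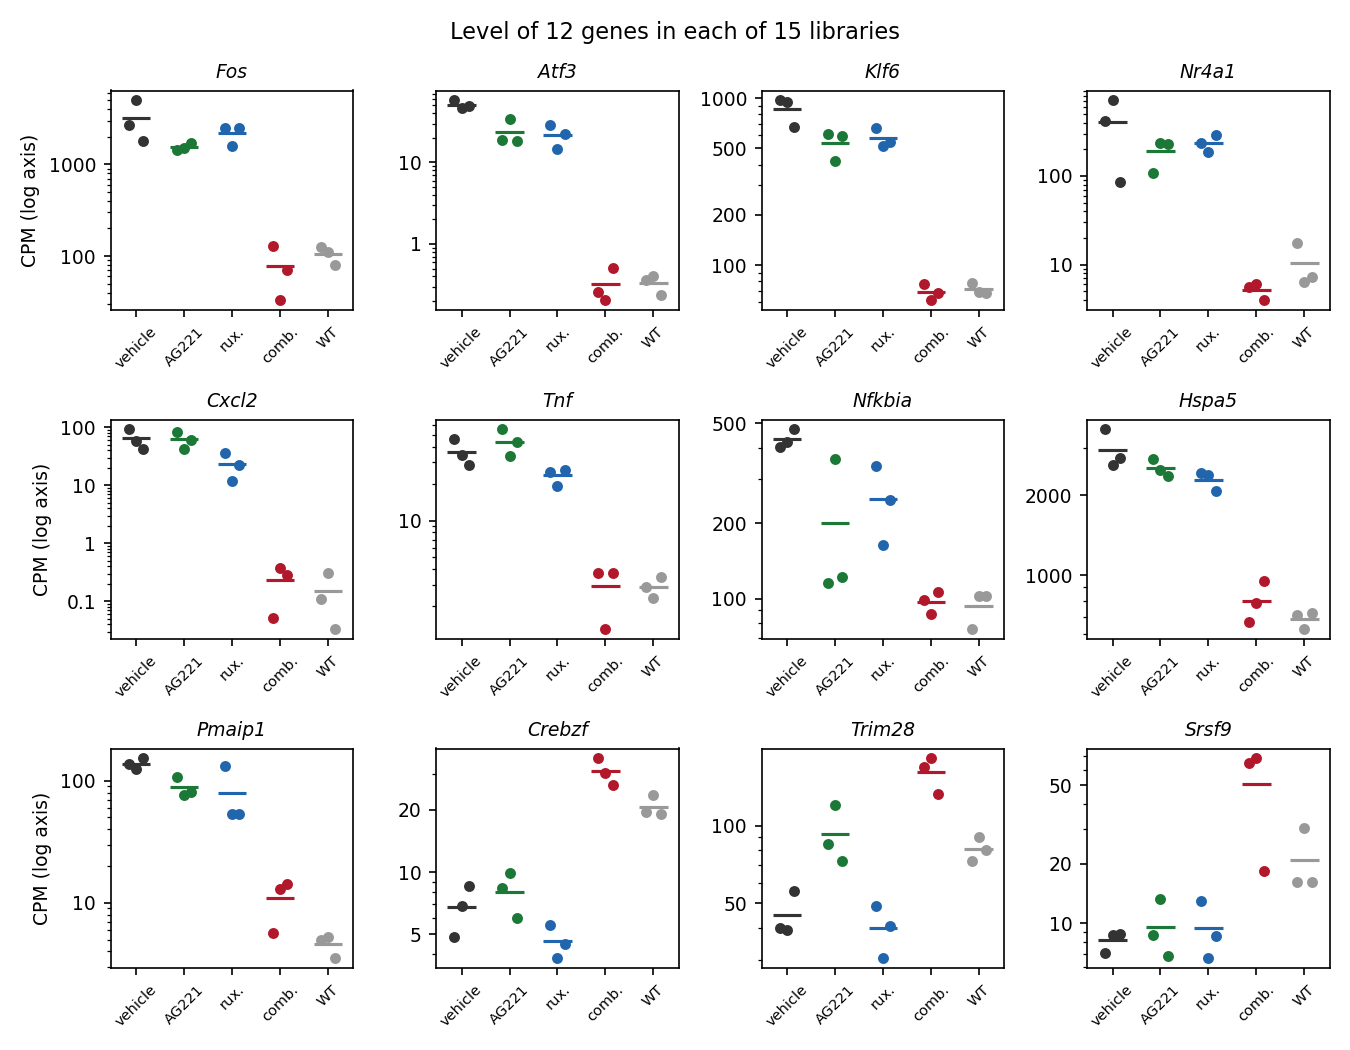
CPM on a log axis in each of the 15 libraries for 12 genes, 1 point per library with a bar at the group mean (3 libraries per group; rux., ruxolitinib; comb., combined). For Fos, Atf3, Klf6, Cxcl2, Tnf, Hspa5 and Pmaip1 all combined libraries lie under all vehicle, AG221 and ruxolitinib libraries, and Crebzf, Trim28 and Srsf9 lie above vehicle.

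Interferon-stimulated genes, which STAT factors and IRF9 switch on below the JAK kinases, moved in 1 direction. Of 52 tested, 24 fell, 0 rose and 28 were not called (median -0.96), with 38 lower and 0 higher at an unadjusted p under 0.05 in edgeR and 28 lower and 0 higher in DESeq2, and 29 had combined libraries that all lay under the vehicle libraries, which held for 15.2% of all genes tested. The count of lower genes was 13 without A1, 16 without B24 or B25 and 20 to 27 without the others. Averaged over the list on the log2 scale and set to the vehicle mean, A1, A3 and A4 stood at 0.61, -0.13 and -0.48, and B24, B25 and B26 at -0.76, -1.0 and -0.86. The immunity-related GTPase gene Iigp1 showed the same order of the vehicle libraries, with 190, 69.9 and 38.6 CPM in vehicle and 22.5, 23.3 and 21.8 CPM in combined (-2.14, SE 0.418, adjusted p = 0.00544). Irf7, the master factor of the type I response, was at 34.4, 19.9 and 20.9 CPM against 10.6, 8.33 and 9.02 CPM (-1.43, adjusted p = 0.00267), and Rtp4 at 45.3, 22 and 17.2 CPM against 8.14, 7.91 and 6.71 CPM (-1.89, adjusted p = 0.00282). Nlrc5, the transactivator of MHC class I genes, fell from 274, 162 and 170 CPM to 77.3, 58.9 and 85.8 CPM (-1.45, adjusted p = 0.00229). The 16 MHC genes tested gave 0 calls in either direction in edgeR and in DESeq2 (median -0.23), with 2 lower and 0 higher at an unadjusted edgeR p under 0.05. Serpina3g, a serine protease inhibitor gene, was at 1412.0, 1848.9 and 797 CPM in vehicle and 218, 468 and 452 CPM in combined (-1.83, adjusted p = 0.00393). Oas3 (adjusted p = 0.00386), Igtp (adjusted p = 0.00889) and Isg15 (adjusted p = 0.00802) fell and kept the call in all 6 fits with a library left out. Mx1, whose promoter drives the Cre, was low in every library, at 3.01, 1.40 and 1.50 CPM in vehicle and 0.626, 0.207 and 0.648 CPM in combined, and its call (adjusted p = 0.0164) was lost without A1 or B25. Irf1, an interferon-induced transcription factor gene, was at 282, 165 and 142 CPM against 134, 118 and 140 CPM and was not called (adjusted p = 0.159).

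For Irf7, Rtp4, Ifit1 and Oas2 the combined libraries lay under WT as well, which did not hold for every interferon gene named here: Serpina3g was at 280, 226 and 322 CPM in WT, and Igtp and Irf1 overlapped between combined and WT. Irf7 was at 32.3, 36.5 and 38.8 CPM in WT, Rtp4 at 44.9, 55.4 and 63.9 CPM, Ifit1 at 19, 19 and 15.6 CPM against 3.39, 2.83 and 1.48 CPM in combined, and Oas2 at 24.5, 18 and 21.7 CPM against 5.48, 3.52 and 3.01 CPM. For 4 early response and inflammatory genes the WT values were of the same order as the combined ones: the WT libraries had 126, 111 and 79.8 CPM of Fos, 78.5, 68.7 and 67.7 CPM of Klf6, 2.87, 2.33 and 3.45 CPM of Tnf and 76.1, 103 and 103 CPM of Nfkbia. No test of combined against WT is given here. The combined and WT libraries also share the letter B, and the vehicle and single-drug libraries the letter A. What part the letter has in this likeness cannot be told apart from the treatment. The WT marrow lacked the mutations as well as the drugs, and the 6 Y-linked and X-inactivation genes, on the list's log2 level against the vehicle mean, stood at -5.46 to -5.13 in WT and at -0.91 to 0.14 in vehicle and combined.

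**Figure D3:**
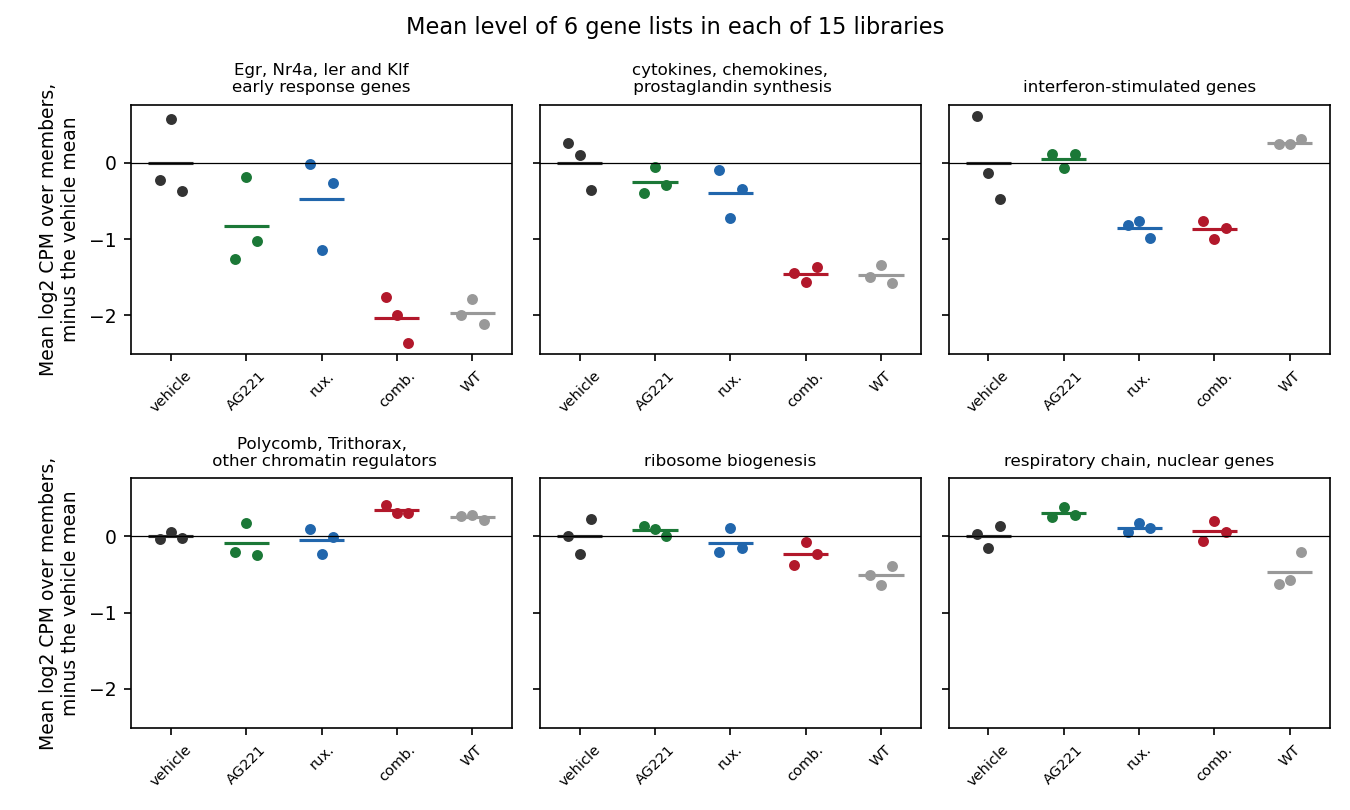
Mean log2 CPM over the tested members of 6 gene lists in each of the 15 libraries, minus the mean of the 3 vehicle libraries (vertical axis, shared); points are libraries and bars are group means. Interferon-stimulated genes stand at -0.76 to -1.0 in the combined libraries and at -0.76 to -0.99 in the ruxolitinib libraries, whereas the early response list stands at -1.76 to -2.36 in the combined libraries, at -1.79 to -2.11 in WT and at -1.26 to -0.02 in the single-drug libraries, and the nuclear respiratory chain list overlaps between vehicle and combined.

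The single-drug groups give the levels beside which the combined values stand; they share the vehicle libraries with the combined comparison, and no test was made between them. Klf6, Atf3 and Cd69 had single-drug means between those of vehicle and combined, whereas the AG221 means of Tnf (44.1 CPM), Ccl4 (135 CPM) and Ccl3 (91 CPM) lay above those of vehicle (36.2, 106 and 54.1 CPM), without passing the test. Klf6 was at 608, 418 and 594 CPM with AG221 and 666, 518 and 547 CPM with ruxolitinib, and the fitted log2 fold changes against vehicle were -0.68, -0.58 and -3.65 for AG221, ruxolitinib and both drugs. Atf3 was at 19, 33.7 and 18.4 CPM with AG221 and 28.4, 14.8 and 22.6 CPM with ruxolitinib (-1.10, -1.21 and -7.29). Cd69, an early activation antigen gene that restrains exit from tissue, was at 526, 251 and 356 CPM and at 256, 156 and 194 CPM in the single-drug groups, against 42.2, 30.5 and 42.9 CPM with both (-0.32, -1.22 and -3.62). Of the 52 interferon-stimulated genes, 2 were called lower with ruxolitinib (median -0.90) and 0 with AG221 (median -0.01), beside 3 and 92 lower calls over all genes. Those called with ruxolitinib were Irf7 and Rtp4: Irf7 was at 6.41, 7.86 and 6.64 CPM (-1.84 against vehicle, adjusted p = 0.0263) and Rtp4 at 4.57, 5.47 and 6.94 CPM (-2.31, adjusted p = 0.0263), while AG221 libraries held 17.2, 19.9 and 25.5 CPM of Irf7 and 20.3, 19.6 and 24.9 CPM of Rtp4. Iigp1 was at 151, 103 and 110 CPM with AG221 and 21.2, 19.7 and 15.3 CPM with ruxolitinib. Of the 15 raised genes with the smallest p, described further on, 11 had all AG221 libraries between the vehicle and the combined libraries, the exceptions being Crebzf, Rnf145, Klhl42 and Fam208a. The 15 were picked for separate vehicle and combined libraries, which leaves a gap for other libraries to fall into. The share over the other raised genes is not given here, so this count is no measure of an AG221 effect. Among the 11, Trim28 was at 84.7, 120 and 72.8 CPM with AG221 (1.04, adjusted p = 0.0477), 48.9, 30.7 and 40.8 CPM with ruxolitinib and 169, 182 and 133 CPM with both, and Fam91a1 at 35.8, 42.7 and 37.6 CPM, 16.1, 17.2 and 16.1 CPM and 73.9, 70.6 and 50 CPM.

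The targeted pathways themselves showed calls in single members. Jak2 (chr19:29251828-29313080, GRCm38) was at 21.8, 20.1 and 24.1 CPM in vehicle and 47.3, 52.9 and 40.7 CPM in combined, 2.13-fold higher (1.09, SE 0.164, adjusted p = 0.00210, kept in all 6 fits with a library left out). Idh2 (chr7:80094846-80115392) was at 212, 368 and 461 CPM against 499, 465 and 568 CPM and was not called (0.56, SE 0.595, adjusted p = 0.607). Counts per gene do not separate the mutant from the normal allele. Of 22 JAK kinases, STAT factors and phosphatases and their regulators, 3 rose and 3 fell (median 0.13). Sh2b3, which encodes the JAK2 inhibitor LNK, rose from 7.48, 6.83 and 7.50 CPM to 46.0, 32.0 and 23 CPM (2.21, SE 0.337, adjusted p = 0.00229), and Pias2, a SUMO ligase gene of the STAT inhibitor family, from 17.6, 26.3 and 21.1 CPM to 74.7, 74.1 and 50.1 CPM (1.61, adjusted p = 0.00358). Stat6, among those that fell, passed narrowly (adjusted p = 0.0470) and lost the call in all 6 fits. Jak1, Stat5a and Stat5b were not called.

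Among 24 target genes of JAK/STAT signalling, 3 fell and 1 rose (median -0.17). Socs5 rose from 6.32, 12.2 and 6.59 CPM to 40.7, 31.2 and 19.1 CPM (1.86, adjusted p = 0.00556, kept in all 6 fits with a library left out). Osm was described above. The feedback inhibitor gene Cish, a STAT5 target, was at 17.7, 73.4 and 13.9 CPM in vehicle and 7.36, 15.1 and 7.12 CPM in combined; A3 held most of the vehicle level, the groups overlapped, and the call (-1.82, adjusted p = 0.0350) was lost without A3, B24 or B26. Socs2 had the same high A3 value, 5.41, 85.4 and 7.89 CPM against 3.86, 16.9 and 7.45 CPM, and was not called (-1.80, adjusted p = 0.258; 0.50 without A3). Id1 was at 2.59, 19.7 and 4.10 CPM against 0.522, 1.28 and 1.53 CPM (adjusted p = 0.0218, lost without A3, B24 or B25). Pim1 was at 19.1, 15.0 and 16 CPM in vehicle and 15.2, 15.0 and 14.9 CPM in combined, and Bcl2l1 at 65.4, 71.6 and 49.1 CPM against 43.6, 61.9 and 44.9 CPM; neither was called. Of 26 hematopoietic cytokine receptor genes, 2 fell and 0 rose (at an unadjusted edgeR p under 0.05, 3 in each direction; in DESeq2, 2 lower and 1 higher). Csf2rb, the beta chain shared by the IL-3, IL-5 and GM-CSF receptors, was at 168, 166 and 234 CPM against 52.6, 75.5 and 98.9 CPM (-1.32, adjusted p = 0.00521) and its near-identical neighbour Csf2rb2, an IL-3 receptor beta chain whose reads could be split between both genes, at 33.3, 18.3 and 45.2 CPM against 2.82, 5.05 and 10.7 CPM (-2.38, adjusted p = 0.00590).

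For the enzymes around 2-hydroxyglutarate, 32 isocitrate, 2-hydroxyglutarate and TCA cycle genes gave 2 higher (6.25%) and 1 lower call (3.12%). These shares were near the 8.28% and 4.21% of all genes tested (list median -0.15). The lower call was lost in 5 of the 6 fits with a library left out. Glud1, glutamate dehydrogenase, rose from 32.8, 38.4 and 44.2 CPM to 164, 141 and 91.1 CPM (1.78, adjusted p = 0.00426). Idh1 was at 106, 107 and 141 CPM against 76.3, 82.8 and 115 CPM and was not called. Among 34 genes for DNA methylation and 2-oxoglutarate dioxygenases, the class that 2-hydroxyglutarate inhibits, 5 rose and 5 fell (median -0.17), which became 0 and 2 without A1, 1 and 2 without B24 and 2 and 2 without B25; without A3, 2 rose. Kdm5c, an X-linked H3K4 demethylase gene, fell from 186, 150 and 170 CPM to 78.6, 79.0 and 95.6 CPM (-1.0, SE 0.143, adjusted p = 0.00155), and Jmjd1c from 222, 235 and 182 CPM to 134, 122 and 128 CPM (-0.73, adjusted p = 0.00441); these 2 kept the call in all 6 fits with a library left out. Kdm5b, another H3K4 demethylase gene, rose from 45.2, 63.5 and 62.9 CPM to 170, 148 and 110 CPM (1.32, adjusted p = 0.00972, lost without A1), and Dnmt3b from 33.2, 47.0 and 36.3 CPM to 109, 88.6 and 62.8 CPM (1.16, adjusted p = 0.0126, lost without A1 or B24). Tet2 was at 80.1, 89.8 and 93.5 CPM against 58.6, 50.2 and 70.6 CPM (-0.55, adjusted p = 0.0419, lost in 5 of the 6 fits), and Tet1 and Tet3 were not called.

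Among stress response and cell cycle arrest genes, single members moved in both directions. Hspa5, which encodes the endoplasmic reticulum chaperone BiP, was at 3523.4, 2602.9 and 2753.6 CPM in vehicle and 665, 785 and 952 CPM in combined, a 3.70-fold difference between groups that did not overlap (-1.89, SE 0.155, adjusted p = 2.50e-05). Of 20 heat shock chaperone genes, 5 fell and 1 rose (median -0.46), with 3 and 0 called in all 6 fits with a library left out. The inducible Hsp70 gene Hspa1a was at 8.46, 2.33 and 3.16 CPM in vehicle and at 0, 0.0346 and 0.0925 CPM in combined, at or under the level of 3 counts per library, and its near-identical copy Hspa1b at 16.7, 1.47 and 7.74 CPM against 0.261, 0.449 and 0.555 CPM (adjusted p = 0.0146, lost without A1, B24 or B25). Atf4, the factor of the amino acid response, fell from 267, 262 and 276 CPM to 116, 127 and 139 CPM (-1.08, adjusted p = 0.00229), and Ddit3, its target encoding CHOP, from 27.0, 26.5 and 25.7 CPM to 14.8, 14.8 and 13.3 CPM (-0.89, adjusted p = 0.00406). Across 26 ATF4 amino acid response genes 3 rose and 2 fell (median -0.25), with 1 rising without A1, A3, B24 or B25. Of 21 p53 target genes, 5 fell and 1 rose (median -0.13), the rise being lost without A1, A3, B24 or B25. Plk2 was at 20.2, 15.2 and 9.16 CPM against 0.731, 0.415 and 0.324 CPM (-4.93, adjusted p = 2.10e-04) and, unlike the early response genes, at 9.07, 10.1 and 8.28 CPM in WT. Cdkn1a, the CDK inhibitor p21, fell from 118, 104 and 77.9 CPM to 25.5, 14 and 26.2 CPM (-2.19, adjusted p = 8.11e-04), and Cdkn1b, the inhibitor p27, from 53.8, 41.3 and 44.1 CPM to 24.2, 20.8 and 24.2 CPM (-1.01, adjusted p = 0.00262). They were the 2 lower calls of 13 D cyclin and CDK inhibitor genes, beside 2 higher ones. Cdkn2c, the inhibitor p18, rose from 12.8, 24.5 and 19.5 CPM to 53.4, 76.4 and 24.2 CPM (1.44, adjusted p = 0.0467, lost in 5 of the 6 fits), and Rb1, the retinoblastoma gene, rose by 0.90 (adjusted p = 0.0297, lost in 4 of the 6 fits). Pmaip1, which encodes the pro-apoptotic BH3 protein NOXA, was at 137, 125 and 152 CPM in vehicle and 5.64, 13.0 and 14.2 CPM in combined (-3.65, adjusted p = 2.58e-04). The antiapoptotic Bcl2 passed narrowly in the other direction (0.86, adjusted p = 0.0497) and lost the call in all 6 fits with a library left out.

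Of 53 DNA replication and mitosis genes, 3 rose (5.66%) and 0 fell (0%), beside 8.28% and 4.21% of all genes tested (list median -0.05). At an unadjusted edgeR p under 0.05, 7 were higher and 2 lower, beside 2849 and 1866 of all 17834 genes. In DESeq2 4 were higher and 0 lower, beside 1942 and 1006. Ccne1, which encodes cyclin E1, rose from 6.43, 8.17 and 12.9 CPM to 35.3, 52.6 and 19.1 CPM (1.96, adjusted p = 0.00490), and E2f1 from 10.1, 8.65 and 10.7 CPM to 25.4, 31.9 and 13.9 CPM (1.28, adjusted p = 0.00635). Ccna2, which encodes cyclin A2, rose from 31.1, 64.8 and 93.9 CPM to 256, 337 and 183 CPM (2.03, adjusted p = 0.0298, lost without A1, A3, B24 or B25). The proliferation genes Mki67 and Top2a were not called, Mki67 at 275, 295 and 341 CPM against 342, 427 and 443 CPM and Top2a at 862, 710 and 856 CPM against 642, 790 and 766 CPM. Of 62 ribosome biogenesis genes 7 fell and 3 rose (median -0.41), and the number that fell ranged from 1 without A1 or B24 to 9 without A3. Utp20 fell from 201, 135 and 204 CPM to 63.5, 70.2 and 93.4 CPM (-1.25, adjusted p = 0.00748), whereas Noc2l rose from 24.4, 38.4 and 57.7 CPM to 247, 270 and 105 CPM (2.37, adjusted p = 0.00615) and Rrs1 from 8.05, 10.4 and 19.5 CPM to 76.9, 89.0 and 31.9 CPM (2.39, adjusted p = 0.00726). Myc was at 838, 861 and 964 CPM against 892, 1049.8 and 1006.6 CPM and was not called. Of 13 genes of Myc and the Max network, 4 rose and 2 fell (median 0.68), with 2 rising without B24 and 3 without A1. The Myc antagonists Mxi1 (1.49, adjusted p = 0.00668) and Mxd4 (1.18, adjusted p = 0.00774) rose, whereas Max (-0.63, adjusted p = 0.0172) and Mga (-0.60, adjusted p = 0.0115), which encodes a Max-binding repressor, fell, both lost without A1, B24 or B25. The 77 nuclear respiratory chain genes (median 0.01), the 10 mitochondrially encoded ones (-0.01) and the 32 proteasome genes (-0.14) gave 0 calls in edgeR and 0 in DESeq2. At an unadjusted edgeR p under 0.05 they gave 2, 1 and 0 genes. The 82 cytoplasmic ribosomal protein genes gave 1 call in each direction, of which 0 were kept in all 6 fits with a library left out.

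**Figure D4:**
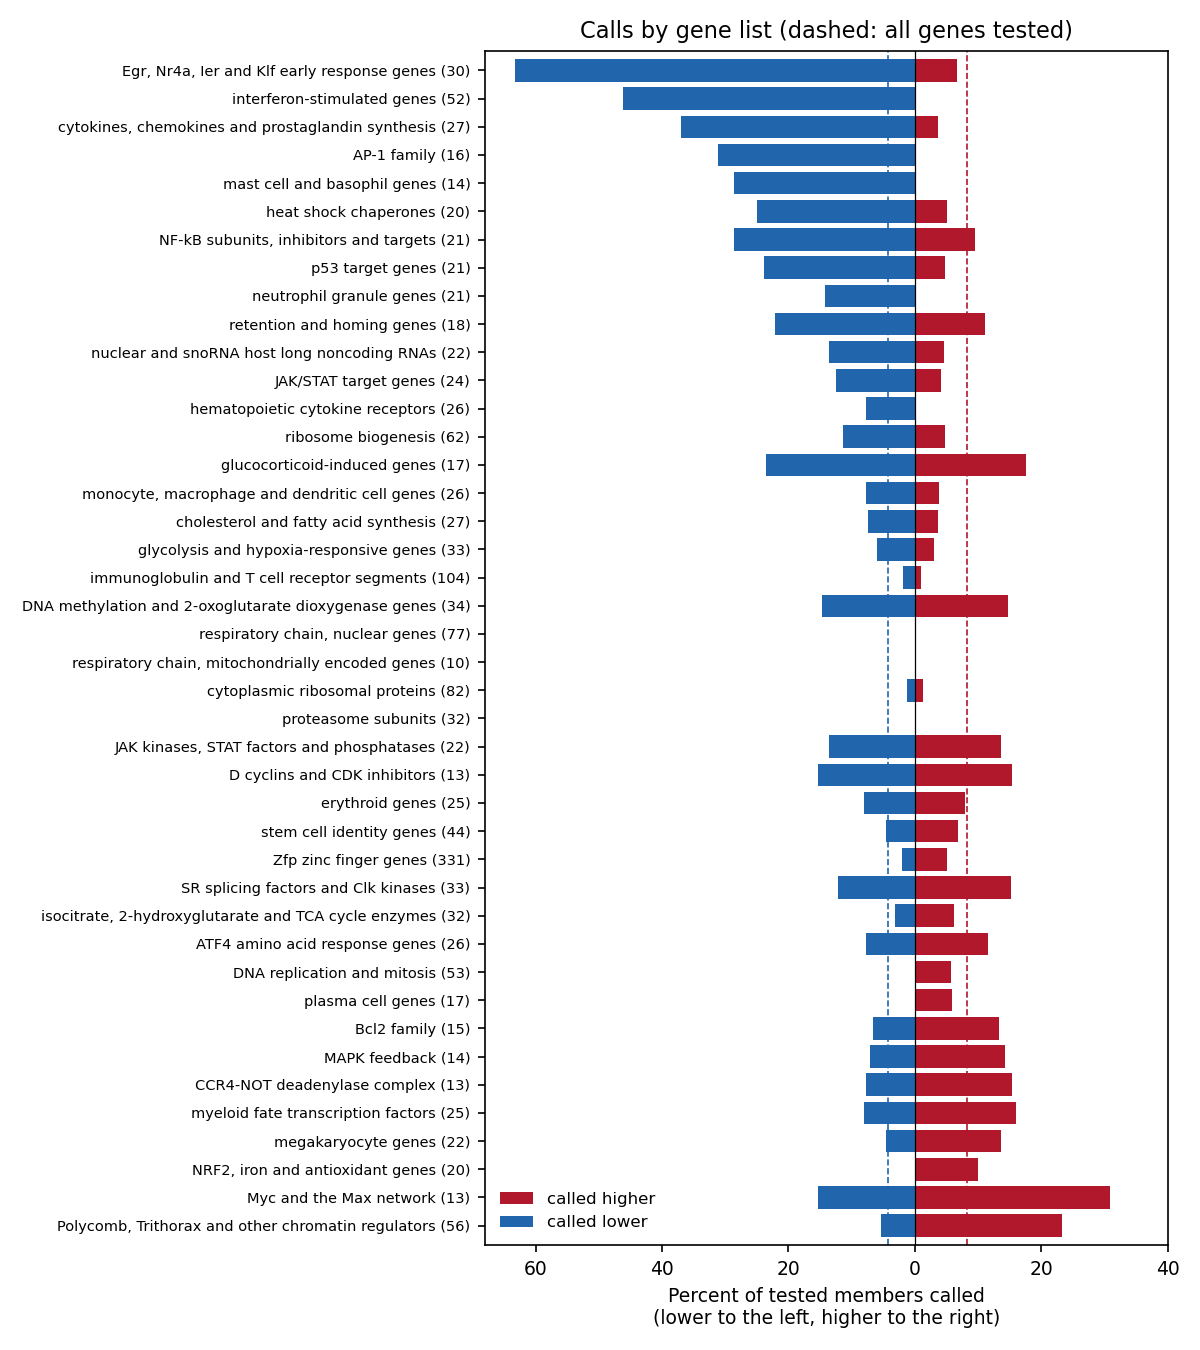
Percent of the tested members of each gene list called lower (bars to the left) or higher (bars to the right); the number tested is in parentheses, and dashed lines mark the 4.21% and 8.28% of all tested genes. Early response (63.3%), interferon-stimulated (46.2%) and cytokine genes (37.0%) have the longest bars to the left of the lists tested, and the respiratory chain and proteasome lists have none.

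Of the genes that rose, the 15 with the smallest p and separate groups were Crebzf, Adipor2, Cnot6, Fam168b, Trim28, Mark3, Fam91a1, D17Wsu92e, Rnf145, Aebp2, Klhl42, Grk6, Lrrc47, Fam208a and Mtch1. All 15 kept the call in all 6 fits with a library left out. Their rise was 1.34 to 2.63 on the log2 scale, with adjusted p between 3.91e-04 and 0.00117. Crebzf, a bZIP corepressor gene, was at 4.85, 6.83 and 8.56 CPM in vehicle and 35.5, 30.3 and 26.4 CPM in combined (2.19, SE 0.254). Adipor2, an adiponectin receptor gene, was at 14.8, 18.3 and 16.8 CPM against 44.9, 41.3 and 40.2 CPM (1.34). Trim28 encodes the corepressor KAP1 that silences transposons, Fam208a encodes a subunit of the HUSH silencing complex and was at 22.6, 28.6 and 27.3 CPM against 83.2, 70.0 and 61.1 CPM, and Aebp2 encodes a Polycomb repressive complex 2 cofactor and was at 15.3, 16.1 and 17.8 CPM against 54.0, 59.5 and 37.4 CPM. Cnot6, a catalytic subunit gene of the CCR4-NOT deadenylase, was at 51.3, 55.5 and 60.6 CPM against 177, 174 and 120 CPM, while the scaffold subunit gene Cnot1 fell from 655, 617 and 578 CPM to 345, 310 and 350 CPM (-0.88, adjusted p = 0.00964). Grk6, a receptor kinase gene that turns off chemokine receptors, was at 16, 16.9 and 19.2 CPM against 61.6, 62.4 and 44.9 CPM.

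Among 56 Polycomb, Trithorax and other chromatin regulators, 13 rose and 3 fell (median 0.33); leaving out A1 reduced the 13 to 5, and the other libraries to between 7 and 12. Bmi1, a Polycomb repressive complex 1 gene that stem cells need to self-renew, rose from 14.2, 15.0 and 18.4 CPM to 57.7, 49.8 and 30 CPM (1.53, SE 0.260, adjusted p = 0.00329). The corepressor gene Ncor1 rose from 128, 107 and 125 CPM to 198, 199 and 169 CPM (0.65, adjusted p = 0.00378). Both kept the call in all 6 fits. Smaller rises of Ezh2 (0.75), Suz12 (0.70), Asxl1 (0.55) and Kmt2a (0.54) passed in the full fit at adjusted p between 0.0108 and 0.0434 but each lost the call in at least 2 of the 6 fits. Jarid2 (-0.61, lost without A3 or B25) and Phc3 (-0.87, lost without B25) fell, and 0 members of the list were lower without B25. Of 33 SR splicing factors and Clk kinases, 5 rose and 4 fell, which became 2 rising without A3 or B24 and 1 falling without A1, A4, B24 or B25; Srsf9 rose from 7.07, 8.65 and 8.84 CPM to 65.1, 68.4 and 18.4 CPM (2.63, adjusted p = 0.00356) and Tra2b fell from 629, 523 and 592 CPM to 326, 379 and 366 CPM (-0.70, adjusted p = 0.00638). Among 22 long noncoding RNAs, Neat1, the scaffold of paraspeckles, fell from 320, 261 and 217 CPM to 95.4, 84.1 and 88.2 CPM (-1.58, adjusted p = 2.20e-04), while Malat1, the neighbouring gene, was at 449, 437 and 328 CPM against 347, 252 and 292 CPM and was not called. Both subunit genes of glutamate-cysteine ligase, the first step of glutathione synthesis, rose, Gclc from 10.4, 9.60 and 14.1 CPM to 56.6, 57.7 and 27.2 CPM (2.05, adjusted p = 0.00265) and Gclm from 14, 20.4 and 30.1 CPM to 126, 161 and 55.0 CPM (2.40, adjusted p = 0.00274), as the 2 calls of 20 NRF2, iron and antioxidant genes.

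The 10 raised genes with the largest fold change and a mean of at least 5 CPM were Shisa8, Kcnk12, Gp1bb, Habp4, Tmem121, Timp2, Zfp771, Sox4, Gp5 and Lipt2. Their vehicle means were between 0.230 and 7.17 CPM. Tmem121 lost the call without A1, A4 or B24, and Zfp771 without A1. Of 22 megakaryocyte genes, 3 rose and 1 fell, with a median of -0.16 and 16 members with a negative fitted value. The number that fell was 0 without A1, A3, A4, B24 or B26. Gp1bb, a platelet glycoprotein Ib subunit gene, was at 0.338, 0.351 and 0.395 CPM against 8.19, 9.30 and 0.694 CPM (4.05, adjusted p = 0.00790), and Gp5, the platelet glycoprotein V gene, at 2.37, 3.19 and 3.83 CPM against 38.9, 54.9 and 7.31 CPM (3.43, adjusted p = 0.00480). Sox4, a progenitor transcription factor gene, was at 4.66, 6.57 and 10.3 CPM against 132, 84.5 and 23.9 CPM (3.48, adjusted p = 0.00751); 54.6% of its exon bases are overlapped by a gene on the other strand, and strand was not stated for the counting. In all 3 genes B26 was the lowest combined library. The same held widely, since B26 was the lowest of the combined libraries for 1198 of the 1476 raised genes (81.2%). The median of those genes' log2 differences from the vehicle mean was 1.80 in B24, 1.71 in B25 and 1.12 in B26. Leaving B26 out gave 1396 raised genes.

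Raised genes also differed from the rest in base composition and length. When the tested genes were ordered and split into 10 equal bins, in the bin with the highest exon GC content (57.6% to 78.6%), 13.0% were called higher and 1.92% lower, with a median log2 fold change of 0.31, whereas in the other bins 4.90% to 8.56% were called higher. By transcript length, calls in the higher direction went from 2.03% in the shortest bin to 12.9% in the longest, and calls in the lower direction from 1.75% in the third bin to 7.61% in the longest. The median longest transcript was 3595.5 bases for raised genes, 3528 bases for lowered genes and 2765 bases for all genes tested. Protein-coding genes made up 90.7% of the raised, 75.3% of the lowered and 79.0% of all tested genes. With a correction for GC content the calls were 1407 higher and 1011 lower, and with one for length 1359 and 903. What part base composition, length or the number of detected genes, which overlapped between the groups, had in the raised genes was not tested.

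**Figure D5:**
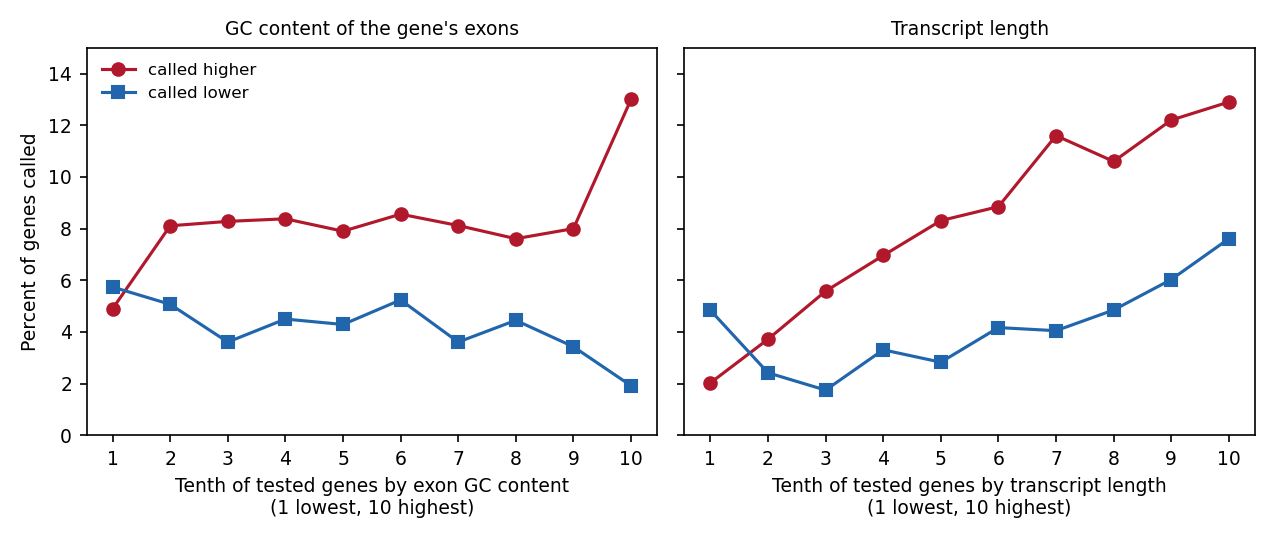
Percent of genes called higher (circles) or lower (squares) in each of 10 equal bins of the tested genes, ordered by exon GC content (left) or transcript length (right). Calls in the higher direction reach 13.0% in the bin with the most GC and 12.9% in the bin with the longest transcripts.

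Of 44 stem cell identity genes 3 rose (6.82%) and 2 fell (4.55%), close to the 8.28% and 4.21% of all genes tested (median 0.13). Without A1, B24 or B25 the number rising was 1, and without A1, A3 or B24 the number falling was 0. Those that rose in the full fit include Lmo2, a T-cell oncogene that blood stem cells need, which went from 135, 240 and 241 CPM to 792, 713 and 525 CPM (1.72, SE 0.366, adjusted p = 0.00839), and Hhex (1.93, adjusted p = 0.0167, lost without A1 or B24). Vwf, a gene of platelet-biased stem cells, was at 136, 106 and 130 CPM against 42.1, 93.3 and 60.2 CPM (-0.93, adjusted p = 0.0458, lost in 5 of the 6 fits). Of 18 retention and homing genes, 4 fell and 2 rose, with 1 rising in each of the 6 fits with a library left out. The chemokine signal dampeners Rgs1, from 864, 1420.4 and 521 CPM to 169, 113 and 108 CPM (-2.84, adjusted p = 2.20e-04), and Rgs2 (-1.36, adjusted p = 0.00378) fell, and Itga6, an integrin gene of stem cells, rose from 32.7, 39.4 and 38.8 CPM to 86.1, 120 and 79.5 CPM (1.36, adjusted p = 0.00125). Among 17 glucocorticoid-induced genes, 4 fell and 3 rose, with 1 rising without A1 or B24: Per1 fell from 69.5, 73.8 and 34.3 CPM to 11.1, 6.88 and 12.1 CPM (-2.56, adjusted p = 7.57e-04) while Fkbp5 rose from 22.5, 22.7 and 21.4 CPM to 75.6, 62.5 and 41.5 CPM (1.43, adjusted p = 0.00258).

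Genes of mature cells were followed to see whether the sorted cells held other cell types. The summed level of 21 neutrophil granule genes was 8304.3 to 13633.4 CPM in vehicle and 4516.9 to 8118.8 CPM in combined, a sum that Mpo largely carries. The mean log2 level over the members, set to the vehicle mean, overlapped between groups, at 0.29, 0.25 and -0.54 in vehicle and -1.99, -0.31 and -0.04 in combined; 3 of the 21 were called lower and 0 higher (at an unadjusted edgeR p under 0.05, 7 and 0; in DESeq2, 4 and 0), and 0 of the 3 kept the call in all 6 fits. Mpo, the myeloperoxidase gene that early myeloid progenitors already transcribe, was at 5190.7, 7869.6 and 6947.5 CPM against 2629.5, 3374.7 and 4997.1 CPM (-0.86, adjusted p = 0.0217, lost without A3, A4, B24 or B25). In bulk RNA, fewer cells of a type and less RNA per cell cannot be told apart. The 15 mast cell and basophil genes summed to 2284.3 to 2780.2 CPM in vehicle and 1489.5 to 1724.0 CPM in combined, but their mean log2 level overlapped, at 0.51, -0.01 and -0.51 in vehicle and -1.0, -0.06 and 0.12 in combined. Of 14 tested, 4 were called lower and 0 higher, which became 1 lower without B24 or B25 and 2 without A4 (at an unadjusted edgeR p under 0.05, 7 and 0; in DESeq2, 6 and 0); Hdc, histidine decarboxylase, was at 80.8, 119 and 190 CPM against 39.3, 55.1 and 65.1 CPM (-1.29, adjusted p = 0.00746). Fcer1a was at 63.1, 49.3 and 168 CPM against 25, 39.0 and 49.2 CPM (adjusted p = 0.0385, lost without A4, B24 or B25). The 26 monocyte, macrophage and dendritic cell genes summed to 1485.6 to 1633.9 CPM in vehicle and 985 to 1632.7 CPM in combined, with 2 called lower and 1 higher. Cd14 fell from 8.5, 10.8 and 5.09 CPM to 0.678, 1.62 and 2.08 CPM (-2.47, adjusted p = 0.00367), Vcam1 fell from 26.4, 96.6 and 15 CPM to 5.43, 11.5 and 7.31 CPM (-2.50, adjusted p = 0.0176, lost without A3, B24 or B26), and Zbtb46, a dendritic cell transcription factor gene, rose from 1.54, 2.23 and 3.63 CPM to 9.13, 17.6 and 5.64 CPM (2.13, adjusted p = 0.00841). Summed erythroid genes (3078.7 to 4666.2 against 3235.1 to 5319.9 CPM), megakaryocyte genes (2677.5 to 3609.9 against 1971.3 to 3151.5 CPM), T and NK cell genes (473 to 559 against 473 to 519 CPM) and B-lineage genes (84.1 to 304 against 96.6 to 570 CPM) overlapped between groups, and plasma cell genes (272 to 452 against 532 to 1016.4 CPM) did not, although their mean log2 level did overlap (-0.17 to 0.28 in vehicle and -0.65 to 0.65 in combined). Of the 25 erythroid genes 2 fell and 2 rose, and none of the 4 kept the call in all 6 fits: the transferrin receptor gene Tfrc fell from 329, 536 and 492 CPM to 125, 174 and 183 CPM (-1.49, adjusted p = 0.0134, lost without B24) and the anion exchanger gene Slc4a1 by 2.62 on the log2 scale (adjusted p = 0.0295), while Tspan33 rose by 2.57 (adjusted p = 0.0131) and Zfpm1, the GATA1 cofactor gene FOG1, by 1.92 (adjusted p = 0.0148). None of these lists had a member at 0 counts in all libraries of either group. Their part in the changes of inflammatory genes, many of which mature myeloid cells also express, was not tested.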

How the data were processed

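The authors sequenced SMARTer-amplified RNA of sorted LSK cells as paired-end reads, aligned them to mm10 (GRCm38) with STAR 2.5.1a and counted reads per Ensembl gene with its quantMode option. The deposited values used are these raw counts. The Ensembl release and the strand setting are not given in the sources used here, and the kit's amplification copies carry no molecular identifiers. The table of DESeq2 (1.6.3) normalized counts deposited by the authors was not used.

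Groups came from the sample labels. Symbols, coordinates, GC content and transcript lengths came from GENCODE mouse release 21, which matched 44585 of 45232 gene identifiers. All 15 libraries in 5 groups of 3 entered a single fit without covariates (edgeR 4.0.16 in R 4.3.3, TMM scaling, filterByExpr by group, glmQLFit and glmQLFTest), with Benjamini-Hochberg adjustment over 17834 genes. Every adjusted p in the text comes from edgeR's quasi-likelihood test, in which the SE is the fitted log2 fold change divided by the square root of F. Log2 CPM used a prior count of 2. Floors cover counting error only. In counts simulated for this comparison over 17254 genes, the fit recovered 0% of 50 genes changed 1.5-fold, 28% of 50 changed 2-fold and 94% each of 50 changed 4-fold and 50 changed 8-fold, with 11 false calls.

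Named genes were the 15 in each direction with the smallest p and separate groups, the 10 in each direction with the largest fold change and at least 5 CPM, members of 46 gene lists, and the targeted genes. The genes and lists were chosen with earlier results of these data known. Alternatives were DESeq2 1.42.0, other scalings, filters, offsets and left-out libraries or genes. Some items are not reported here.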

Additional observations from a re-analysis of the deposited data

How the results depend on the processing

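No paired analysis was possible because the replicate numbers of the vehicle and combined libraries do not overlap. Leaving out 1 library in turn gave 1006 to 1965 calls, 693 to 1396 higher and 302 to 615 lower. At least 1.5-fold by glmTreat gave 750 genes (589 higher, 161 lower), at least 2-fold gave 99 (41 and 58) and an adjusted p under 0.0001 gave 17 (0 and 17); a stricter threshold leaves fewer genes by its construction. DESeq2, which tested 37835 genes, called 2987. The 13 other scalings, filters, offsets and gene exclusions gave 1557 to 2423 calls, within 1.5 times the 2226 of the main setting. Upper quartile scaling moved the median log2 fold change of all genes by -0.112 and the GC offsets by -0.106, which gave 900 and 1011 lower genes. Of 177 named genes that were called, 0 changed sign under any setting run, 110 kept the call in all 6 fits with a library left out and 149 in all 14 other settings. Socs2, which was not called (-1.80), ranged from -2.54 without B25 to 0.50 without A3; the cause was not tested. In the simulation, changes of 2-fold were mostly missed with 3 libraries per group. The simulation changed far fewer genes than the 2226 called here, and with fewer changed genes the adjusted p is harder to pass. Its shares are therefore not the recovery of this comparison. Genes that were not called may still have changed by such amounts.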
